A study of Homo sapiens with 4 samples.

Results

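Of the 22419 H3K27ac peaks wider than 1 kb in SK-Hep1 cells with SMARCB1 knocked down, 601 overlapped no peak of the control library by even 1 base. They are called knockdown-only peaks here. Peaks were taken from the autosomes other than chromosome 17 and from X, where the knockdown library held 32117 peaks of all widths. The 601 are 2.68% of the knockdown peaks over 1 kb; presence in one list and absence from the other chose them, so this share and their widths are given as a description. Applied in the other direction, the same rule left 927 of 23862 control peaks over 1 kb, or 3.88%, as control-only peaks, which serve below as the mirrored set.

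SK-Hep1 is an established human hepatic adenocarcinoma cell line. The control library (shCon) came from cells stably expressing a control shRNA and the knockdown library (shSMARCB1) from cells stably expressing an shRNA against SMARCB1, both kept under puromycin selection. A further library was immunoprecipitated for SMARCB1 itself, and the labels of that library name no shRNA. With 1 library in each group, no value below has a replicate check, no test between conditions was made, and the 95% Wilson intervals cover the counting of peaks only.

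H3K27ac is acetylation of lysine 27 on histone H3 and marks active promoters and active enhancers, the distal elements that raise transcription of genes that may lie far away. SMARCB1 is a core subunit of the SWI/SNF complexes, which slide and evict nucleosomes at such elements, and its loss is the defining lesion of malignant rhabdoid tumours. In a bulk library, more cells carrying a mark and more of the mark in each cell cannot be told apart.

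The control library held 13235203 tags and the knockdown library 10203310, with 53.78% and 55.07% of them in peaks. The caller worked with fragment lengths of 190 and 158 bp and with tag thresholds of 11 and 10 per peak. Both libraries were called against the input of the control cells, so a difference in DNA copy number and a difference in acetylation cannot be told apart. Of 12 mesenchymal markers, 9 carried an H3K27ac peak at a gene end, within 1 kb, in each library. The 2 sets of 9 differed, with COL1A2 marked in the control only and TWIST2 in the knockdown only. Of 15 hepatocyte markers, 3 were marked in the control and 4 in the knockdown, and ALB, APOA1, HNF4A and TTR were marked in neither. Endothelial markers were marked at 2 of 12 in each library, epithelial markers at 5 and 3 of 9, and leukocyte markers at 3 and 3 of 7. Of the leukocyte markers, CD8A and CSF1R were marked in the control only, and CD4 and CD79A in the knockdown only. One knockdown-only peak lay at an end of any of these markers, that of the mesenchymal transcription factor TWIST2.

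Knockdown-only peaks that hold a transcript start came in different kinds of sequence, and those that best show this are printed here from the RefSeq promoter table of GRCh38.p14, 5′ to 3′ on the strand of the gene. The first set gives the 200 bases just before the start of 5 genes with a start marked in the knockdown only. Capitals mark each CG pair, the dinucleotide that is dense in CpG island promoters. ADGRB3 lies at chr6:68635082-68635281, AJAP1 at chr1:4654409-4654608 and TWIST2 at chr2:238847885-238848084, all on the plus strand. ANOS1 lies at chrX:8732138-8732337 on the minus strand and SCML1 at chrX:17737293-17737492 on the plus strand.
ADGRB3: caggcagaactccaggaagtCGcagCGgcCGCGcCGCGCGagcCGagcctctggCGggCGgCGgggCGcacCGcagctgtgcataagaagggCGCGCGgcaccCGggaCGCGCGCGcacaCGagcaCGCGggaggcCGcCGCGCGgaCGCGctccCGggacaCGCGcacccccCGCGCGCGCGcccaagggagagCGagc
AJAP1: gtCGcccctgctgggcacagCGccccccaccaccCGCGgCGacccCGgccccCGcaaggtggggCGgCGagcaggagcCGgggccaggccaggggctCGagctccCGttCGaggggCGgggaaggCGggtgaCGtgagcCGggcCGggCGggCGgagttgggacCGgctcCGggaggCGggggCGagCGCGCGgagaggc
TWIST2: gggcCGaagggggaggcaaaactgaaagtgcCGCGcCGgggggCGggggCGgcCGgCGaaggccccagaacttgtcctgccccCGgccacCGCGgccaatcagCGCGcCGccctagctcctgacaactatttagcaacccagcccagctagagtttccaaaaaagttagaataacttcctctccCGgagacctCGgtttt
ANOS1: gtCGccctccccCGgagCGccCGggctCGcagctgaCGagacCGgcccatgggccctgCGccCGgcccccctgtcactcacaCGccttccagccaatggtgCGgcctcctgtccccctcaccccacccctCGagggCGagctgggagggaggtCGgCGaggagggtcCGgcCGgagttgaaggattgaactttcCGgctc
SCML1: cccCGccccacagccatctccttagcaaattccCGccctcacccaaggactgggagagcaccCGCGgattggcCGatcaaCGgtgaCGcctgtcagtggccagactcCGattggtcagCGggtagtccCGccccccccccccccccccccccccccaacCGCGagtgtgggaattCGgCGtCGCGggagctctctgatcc
The ADGRB3 stretch held 39 CG pairs and AJAP1 27, against 18 in ANOS1 and 16 each in TWIST2 and SCML1. All 5 are rich in G and C, from 63.0% in TWIST2 to 81.5% in AJAP1.

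The second set shows start sites poor in CG pairs that hold the 7-base word bound by AP-1, the FOS and JUN family of stress and growth factor responsive transcription factors. Capitals mark that word, TGACTCA or its reverse complement TGAGTCA. MEF2C, which encodes a muscle and neural transcription factor, is shown from an internal start at chr5:88785542-88785581 on the minus strand. The lncRNA LOC124900845 is shown at chr4:32140799-32140838, also on the minus strand.
MEF2C: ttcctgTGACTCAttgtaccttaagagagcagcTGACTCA
LOC124900845: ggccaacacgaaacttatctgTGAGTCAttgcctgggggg
The MEF2C stretch held the word at 2 places and no CG pair, and the lncRNA stretch held it once. The knockdown-only peak on this MEF2C start was 1007 bp wide, while another start of the gene lay in a peak in both libraries, 1840 bp wide in control cells and 1863 bp with SMARCB1 knocked down.

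Counted over whole 300-base windows, from 250 bases before to 50 after each start, 4 of the 29 start sites in knockdown-only peaks held an AP-1 word on either strand, or 13.8% (5.50 to 30.6%). The share was 4.91% over all 33154 start sites in the table and 3.62% over the 13775 start sites in shared knockdown peaks over 1 kb. The TEAD word GGAATG, read like the others on both strands, was in 6 of 29, or 20.7% (9.85 to 38.4%), against 14.1% and 11.0%. The ETS word CCGGAA was in 3 of 29, or 10.3% (3.58 to 26.4%), against 17.1% and 30.2%. The TATA word TATAAA was in 10.3% of them as well, against 11.7% and 4.78%. The C/EBP words TTGCGCAA, TTGCACAA and TTGTGCAA were in 2 of 29, or 6.90% (1.91 to 22.0%), against 0.935% and 0.566%. Those 2 windows, of TWIST2 and of the lncRNA LOC100287387, overlap under 1 peak and hold the same single site, counted in each. The CRE word TGACGTCA was in 1. The median window in knockdown-only peaks held 3 CG pairs, against 27 in shared peaks and 13 over all start sites. Of the windows in knockdown-only peaks, 37.9% (22.7 to 56.0%) held 15 or more, against 84.9% in shared peaks and 48.5% over all start sites, which lies inside that interval. CpG-rich windows such as those printed first were therefore 11 of the 29. With 29 windows, some of them of the same gene or overlapping, these intervals are wide, and a match to a word describes the letters only.

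One knockdown-only peak, 1589 bp wide at chrX:70022313-70023901 in EDA, the gene of the tumour necrosis factor family ligand ectodysplasin A, covered the hairpin of the microRNA gene MIR676. Both mature forms are printed because this was the 1 microRNA gene, of 1801 in the RefSeq table on these chromosomes, under a knockdown-only peak. Capitals mark the seed, bases 2 to 8.
hsa-miR-676-5p: uCUUCAACcucaggacuugca
hsa-miR-676-3p: cUGUCCUAagguuguugaguu
Their seeds differ, and no microRNA level was measured in these libraries.

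Knockdown-only peaks were short. Their widths ran from 1003 to 10478 bp with a median of 1409 bp and quartiles of 1181 and 1817 bp, and together they covered 0.968 Mb. Of the 601, 355 were at most 1500 bp wide, 107 were wider than 2 kb, 23 wider than 3 kb and 9 wider than 4 kb. Shared knockdown peaks over 1 kb had a median of 2098 bp. Among the 927 control-only peaks the median was 1326 bp, with 93 wider than 2 kb, 9 wider than 3 kb and 3 wider than 4 kb. The widest control-only peak, at 4860 bp, was narrower than the 4 widest knockdown-only peaks. At the threshold itself, 50 knockdown-only peaks were 1003 to 1050 bp wide and 35 just below it were 951 to 1000 bp wide.

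**Figure D1:**
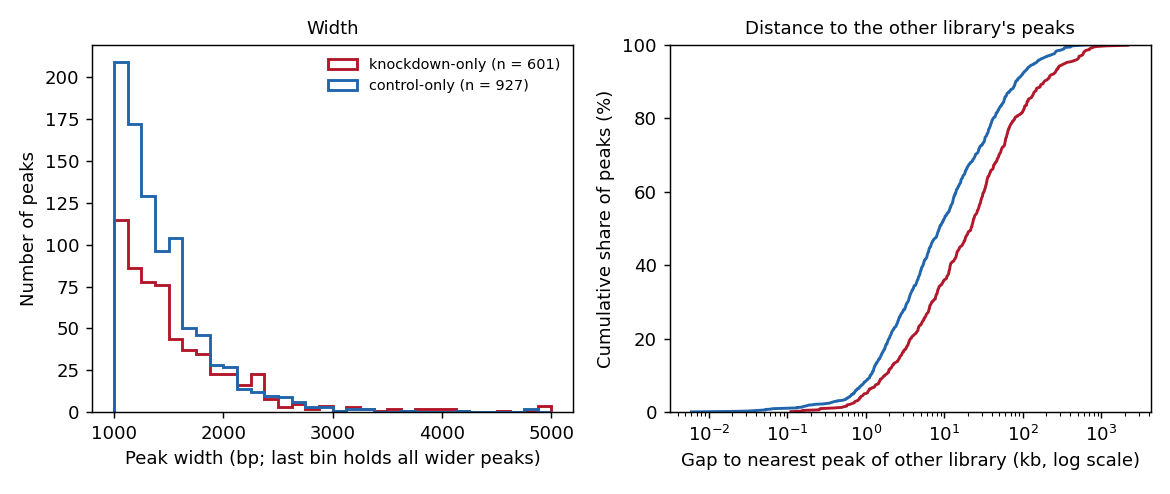
Left, number of peaks by width in bp (the last bin holds all wider peaks), and right, cumulative share in percent by the gap in kb (log axis) to the nearest peak of the other library, for the 601 knockdown-only (red) and 927 control-only (blue) peaks over 1 kb. Both sets hold mostly peaks under 2 kb, and the knockdown-only curve lies to the right for the gap, with a median of 21.9 kb against 8.61 kb.

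The distance from a knockdown-only peak to control acetylation varied widely. The median gap to the nearest control peak was 21.9 kb, with quartiles of 5.48 and 62.2 kb. A control peak lay within 10 kb of 216 of them, or 35.9% (32.2 to 39.9%), and within 1 kb of 30. By contrast, 180, or 30.0% (26.4 to 33.7%), were 50 kb or more away and 24 were 500 kb or more away. For control-only peaks the median gap to a knockdown peak was 8.61 kb, 52.6% (49.4 to 55.8%) lay within 10 kb, 17.4% (15.1 to 19.9%) were 50 kb or more away and 3 of 927 were 500 kb or more away. The rule used the gap only to require a missing overlap. Each set's gaps run to a different list, of 33489 control or 32117 knockdown peaks. The intervals of these shares do not meet, but they cover the counting of peaks only, and the difference was not tested.

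The most isolated were a pair on chromosome 16, 1323 and 1017 bp wide, in a stretch without genes 781 kb from CDH11, a mesenchymal cadherin. Their nearest control peak was 2227 and 2219 kb away. Other isolated peaks were that on the ADGRB3 start (1160 kb) and a peak of 1047 bp in HCRTR2, an orexin receptor gene (723 kb). The SCML1 start peak was 615 kb from a control peak. Each of these loci thus lay in a wide stretch without any control H3K27ac peak.

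Knockdown-only peaks were mostly distal. They overlapped a protein-coding gene record in 312 of 601 cases, or 51.9% (47.9 to 55.9%), compared with 71.6% (71.0 to 72.2%) of shared knockdown peaks and 62.7% (59.5 to 65.7%) of control-only peaks. They reached within 1 kb of a coding gene end in 28 cases, or 4.66% (3.24 to 6.65%), compared with 42.3% and with 10.2% (8.46 to 12.4%). A coding transcript start lay inside 17 of the 564 knockdown-only peaks off chromosome 8, or 3.01% (1.89 to 4.77%), compared with 38.0% of shared and 6.71% (5.22 to 8.57%) of control-only peaks. Start sites on chromosome 8 were not used here.

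**Figure D2:**
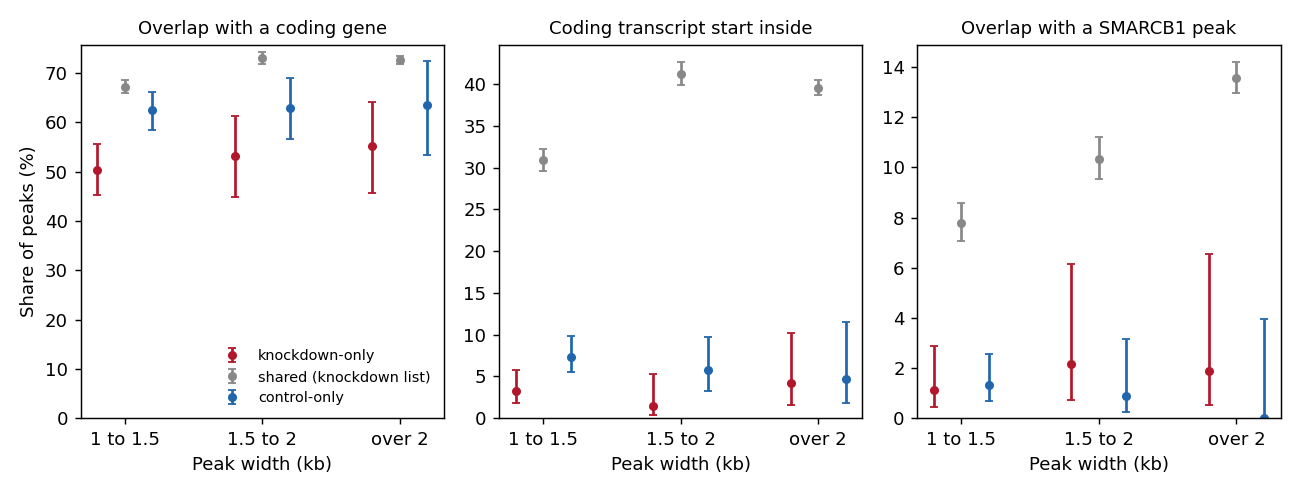
Share of peaks in percent that overlap a coding gene record, hold a coding transcript start or overlap a SMARCB1 peak, for knockdown-only, shared knockdown and control-only peaks in 3 width classes in kb; error bars are 95% Wilson intervals for the counting of peaks. At 1 to 1.5 kb, a start lay in 3.28% of knockdown-only, 30.9% of shared and 7.37% of control-only peaks.

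The share at gene ends was low in every width class, at 5.35% (3.45 to 8.21%) for knockdown-only peaks of 1 to 1.5 kb, 2.88% (1.12 to 7.17%) for 1.5 to 2 kb and 4.67% (2.01 to 10.5%) above 2 kb. The same 3 width classes of shared knockdown peaks had 36.0%, 45.5% and 43.5% at a gene end. The median distance to the nearest coding start was 65.3 kb for knockdown-only peaks, 34.0 kb for control-only peaks and 12.4 kb for shared peaks. More than 200 kb separated 23.9% (20.6 to 27.6%) of knockdown-only peaks from any coding start, compared with 14.0% (11.8 to 16.5%) of control-only and 8.61% of shared peaks. Hosts were long: the longest gene record over a hosted peak had a median length of 180 kb, against 125 kb for control-only and 65.5 kb for shared peaks, while the median coding gene was 24.9 kb long. Of the 289 peaks outside coding genes, 84 lay in a noncoding record and 205 in no gene record at all.

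The 28 peaks at gene ends touched 32 coding genes, or 0.17% of 18805, and a start site lay under the peak for 14 of the 32. No control peak lay within 10 kb of 13 of these 32 genes. Among those with a start under the peak, ADGRB3 encodes an adhesion G protein-coupled receptor of the brain, AJAP1 a transmembrane protein of adherens junctions, and ANOS1 the extracellular matrix protein anosmin, which guides migrating neurons. Their start peaks were 1463, 2258 and 1135 bp wide in the knockdown, and the control had no peak at any of these starts. The AJAP1 start peak lay only 1.18 kb from a control peak, against 1160 kb for ADGRB3 and 431 kb for ANOS1. Within 10 kb of AJAP1, 1828 bp were covered in control cells and 18854 bp in the knockdown. The bases printed above for these genes fall under these peaks, or, for AJAP1, cross the peak's edge.

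TWIST2, a helix-loop-helix factor of mesenchyme, had a peak of 1716 bp over its start, 14.5 kb from a control peak. Within 10 kb of TWIST2, 5415 bp were covered with SMARCB1 knocked down against 4155 bp in control cells, so the locus was acetylated in both libraries away from the start. SCML1, a relative of Polycomb group proteins, had 2074 bp covered within 10 kb against 0 bp in control cells, and the same peak reached an end of NHS, the gene of Nance-Horan syndrome. ZBTB38, a zinc finger protein that binds methylated DNA, carried a peak of 2162 bp at an end, but its starts were marked in both libraries and more length was covered in the control, 35052 against 26910 bp.

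Genes with an acetylated start in both libraries and a knockdown-only peak elsewhere at an end also included ANKRD1, a mechanically responsive cofactor (1787 bp), and DCDC2, a doublecortin family gene (1452 bp). Around ANKRD1, 11440 bp were covered against 9383 bp in control cells, and around DCDC2 43347 against 42566 bp. Most of the covered length at both genes was thus already there in the control library. TMEM212 (2097 bp at an end) had 2598 against 0 bp, with its start marked in neither. NHSL2, a relative of NHS, had a start peak of 1595 bp and 5537 against 1389 bp, and RTL3, a gene derived from a retrotransposon, had a start peak of 1491 bp and 3157 against 0 bp. The peak of 2260 bp at the shared end of CCDC107 and ARHGEF39 lay 1.47 kb from a control peak, with 4531 and 4248 bp covered in the 2 libraries. LOC124903757 had a peak of 1508 bp at an end and LOC127898563 shared the ADGRB3 start peak. Over all 32 genes, covered length within 10 kb was longer in the knockdown for 28 and longer in the control for 4, a split that the choice of genes by a knockdown-only peak favours.

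The records of 281 coding genes held a knockdown-only peak, or 1.49% of 18805, of which 254 held 1, 17 held 2 and 10 held 3 or more. Of the 231 hosts with a start site in the table, 156, or 67.5% (61.3 to 73.2%), had a start in H3K27ac in both libraries and 55, or 23.8%, in neither. A start marked in the knockdown only was found for 18 hosts, or 7.79% (4.99 to 12.0%), and 15 of the 18 owe it to a knockdown-only peak lying on the start. The other 3 were PAK3, KRT5 and SHC4. A start marked in the control only was found for 2. Over all 14988 coding genes with a start site, 61.3% had a start marked in both libraries, 36.3% in neither, 0.554% in the knockdown only and 1.89% in the control only. The rule itself raises the knockdown-only share among these hosts. Hosts of the mirrored control-only peaks had 68.7% in both, 18.2% in neither, 12.9% in the control only and 1 of 412 in the knockdown only.

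**Figure D3:**
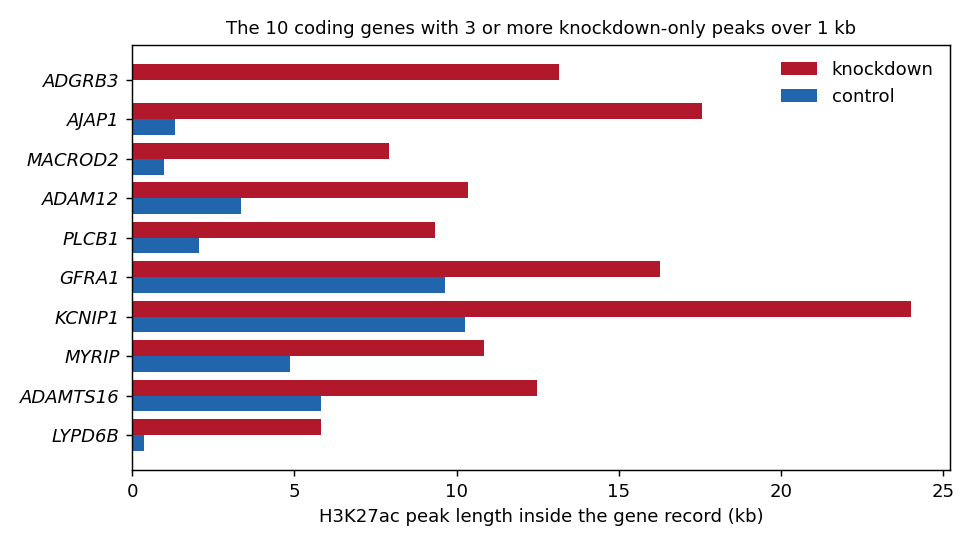
Length in kb covered by H3K27ac peaks inside each of the 10 coding genes that hold 3 or more knockdown-only peaks over 1 kb, in the knockdown and the control library (1 library each, no error). All 10 genes had more covered length in the knockdown, from 5810 bp in LYPD6B to 23997 bp in KCNIP1.

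ADGRB3 was the host with most knockdown-only peaks, together with AJAP1. ADGRB3, 754 kb long, held 5, of 1463, 1739, 2783, 4112 and 1827 bp. The first lay on the start and the other 4 lay together further into the gene, from 383 kb beyond LOC127898563, which shares that start peak. All its knockdown peaks together covered 13154 bp, and no control peak lay in the gene. AJAP1 held 5, of 2258, 2037, 1633, 1297 and 1453 bp, and had 17564 bp covered in the knockdown against 1327 bp in the control.

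Of the other 8 hosts with 3 such peaks, 2 are metallopeptidases of the ADAM families. ADAM12, which sheds growth factor precursors from the cell surface, had 10359 bp covered with SMARCB1 knocked down against 3350 bp, and the secreted ADAMTS16 had 12467 and 5831 bp. Signalling genes were PLCB1, a phospholipase C that acts downstream of G proteins, with 9347 and 2054 bp, and GFRA1, a receptor for GDNF, with 16274 and 9642 bp. KCNIP1, a potassium channel interacting protein, had 23997 and 10249 bp. The rest were MYRIP, which links organelles to myosin (10837 and 4863 bp), LYPD6B, a LY6 family protein (5810 and 360 bp), and MACROD2, an ADP-ribose hydrolase (7926 and 983 bp). The GFRA1 start was marked in both libraries, at 2376 and 2337 bp, and the MACROD2 start also in both, at 996 and 1367 bp. MYRIP and LYPD6B had a start marked in the knockdown only, under a knockdown-only peak of 1044 and 1332 bp. Having 3 or more such peaks chose these hosts, so their longer covered length in the knockdown is a description. Over all 281 hosts, covered length in the gene was longer in the knockdown for 236 and not longer for 45, which the choice of hosts favours too, and 44 hosts had no control peak inside.

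Clusters, defined as at least 3 knockdown-only peaks with gaps of at most 100 kb, numbered 16 and held 63 peaks, or 10.5% (8.28 to 13.2%). The control-only peaks formed 29 clusters with 10.7% (8.85 to 12.8%) of them, and the intervals of these shares overlap. Of the 16, 9 spans held no control peak of any width, and 6 lay outside coding genes. The 8 clusters with most peaks follow.

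The largest, chr8:122078815-122189090, lay in the desert between HAS2, a hyaluronan synthase, and ZHX2, a zinc finger homeobox repressor, 437 kb and 591 kb away. It held 8 knockdown-only peaks, of 2118, 1059, 2900, 1100, 10478, 4204, 2218 and 5579 bp, including the widest of all 601. All knockdown peaks in this span of 110 kb covered 49837 bp, against 1070 bp in 1 control peak. The widest knockdown peak there, 19032 bp, is not among the 601 because a control peak lay under it.

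The second, chr4:74531834-74671321, lay between AREG (76.8 kb) and BTC (73.4 kb), which encode the epidermal growth factor receptor ligands amphiregulin and betacellulin. It held 6 knockdown-only peaks of 1004 to 2152 bp, in a span with 22347 bp of knockdown and 5847 bp of control acetylation. Of those 22347 bp, 12831 bp lay in 1 knockdown peak that overlaps a control peak. The third and the fifth were the AJAP1 and ADGRB3 clusters, with 16720 against 1327 bp and 11736 against 0 bp in their spans. In the AJAP1 span, 8042 of the 16720 bp lay in 1 knockdown peak that overlaps a control peak. The fourth, chr15:98065930-98155933, lay 92.1 kb from ARRDC4, an arrestin domain gene, and 493 kb from IGF1R, the insulin-like growth factor receptor gene. Its 4 knockdown-only peaks, led by 1 of 7501 bp, stood in 21980 bp of knockdown against 1160 bp of control acetylation.

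The remaining 3 of the 8 clusters held 4 peaks each. At chr9:78675695-78864270, between PSAT1, an enzyme of serine synthesis (346 kb), and the corepressor gene TLE4 (708 kb), 8695 bp were covered with no control peak in the span. At chr12:89731228-89776434, 21.9 kb from ATP2B1, a plasma membrane calcium pump gene, 7586 and 501 bp were covered. At chr21:27206464-27426026, in a span of 220 kb crossed by 3 lncRNA records, 8362 and 3000 bp were covered, and its nearest coding record was LOC124905050 at 234 kb. In each of the 8 spans the knockdown covered more length, which follows in part from choosing spans by knockdown-only peaks.

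**Figure D4:**
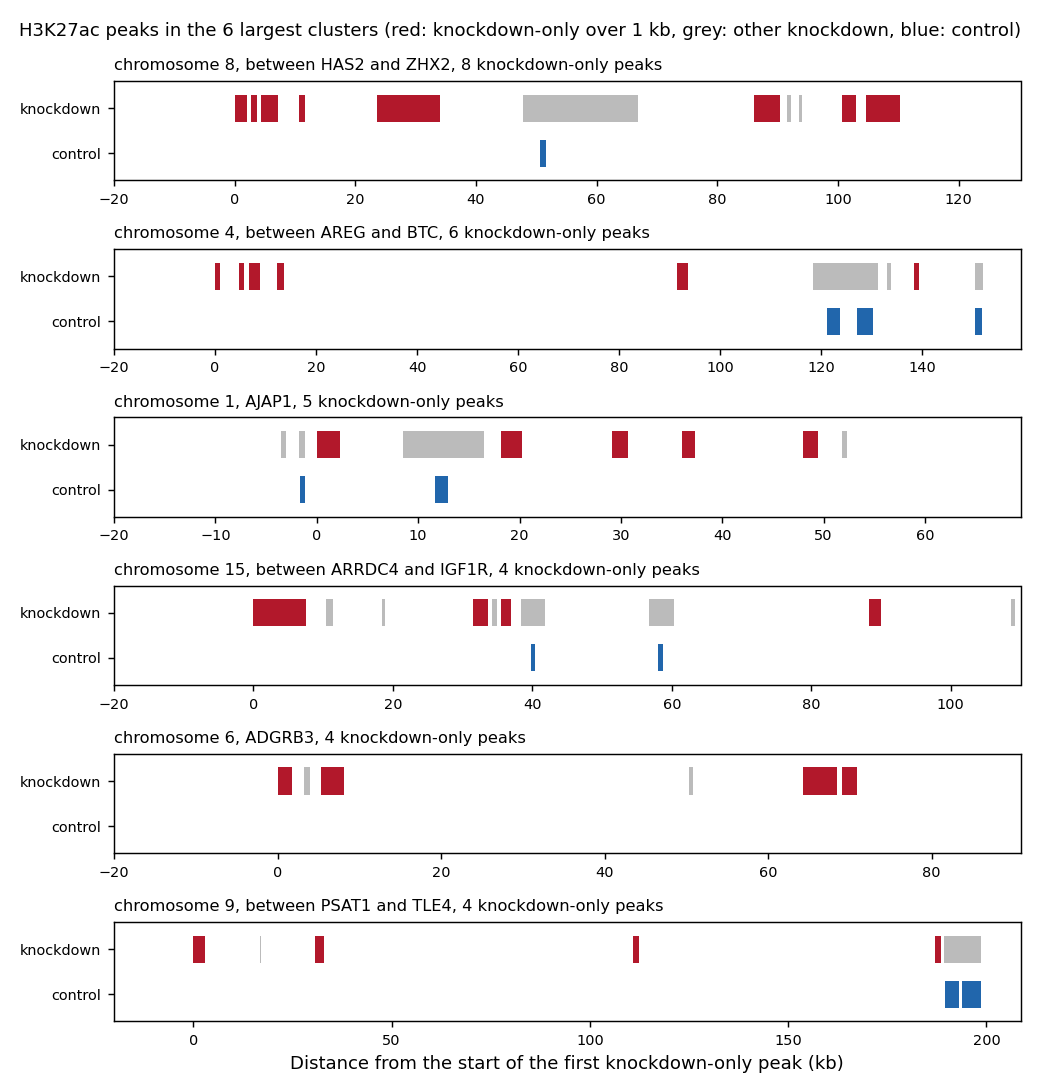
H3K27ac peaks in the first 6 of these clusters, drawn to scale by distance in kb from the first knockdown-only peak; knockdown-only peaks over 1 kb are red, other knockdown peaks grey and control peaks blue. In the HAS2 and ADGRB3 clusters most of the marked length is in the knockdown library, with 49837 against 1070 bp and 11736 against 0 bp.

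The 20 widest knockdown-only peaks, down to 3185 bp, were chosen on width, and 12 of them lay outside coding genes. Of these 20, 4 were over 100 kb from a control peak and 8 within 10 kb of 1. Those outside genes included the 3 in the HAS2 desert (10478, 5579 and 4204 bp) and the ARRDC4 peak (7501 bp). A peak of 5599 bp lay in the lncRNA LOC105369844, 197 kb from PHLDA1, a growth factor induced gene. A peak of 4795 bp lay between ARHGAP11A-SCG5, the nearest coding record at 5.94 kb, and, 10.2 kb away, GREM1, a secreted antagonist of bone morphogenetic proteins, in a cluster with 7434 bp of knockdown and 0 bp of control acetylation. A peak of 4529 bp lay in LINC02257, 204 kb from DUSP10, a phosphatase of stress-activated kinases. Others lay 31.9 kb from PRKCH, a protein kinase C gene (3961 bp), 41.4 kb from PRSS23, a serine protease gene (3829 bp), 134 kb from GNPDA2, an enzyme of glucosamine metabolism (3790 bp), 11.2 kb from TBC1D12 (3614 bp) and 12.5 kb from NBPF6 (3377 bp).

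Inside genes, the widest after that of ADGRB3 (4112 bp) lay in IL6R, the interleukin 6 receptor gene (4042 bp). IL6R had its start marked in both libraries, and 14247 bp of the gene were covered in the knockdown against 10379 bp in the control. ALPK2, an alpha kinase gene, held 1 of 3932 bp, with 22611 and 19154 bp covered in the gene. The others were in PLCB1 (3686 bp), the synaptic adhesion gene TENM2 (3590 bp), the lymphocyte transcription factor gene TOX (3300 bp), HMGCLL1, a lyase of ketone body metabolism (3285 bp), and HSPA12A of the heat shock protein 70 family (3185 bp). TOX held another of 2267 bp, and its gene had 10447 bp in the knockdown against 1002 bp in the control. IL6R and ALPK2 thus carried most of their covered length in control cells too, while TOX carried little.

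Gene families were read against the 1.49% of all coding genes that hold a knockdown-only peak, and against gene length, because 0.253% of genes under 20 kb, 1.04% of 20 to 100 kb, 4.56% of 100 to 300 kb and 9.48% over 300 kb hold one. A control-only peak was held by 2.69% of all coding genes, and by 0.637%, 2.56%, 6.95% and 12.4% in the same length classes. Phosphodiesterases, which break down cyclic nucleotides, had the highest share with a knockdown-only peak, 5 of 23 or 21.7%. These were PDE8A (1783 bp), PDE11A (1751 bp), PDE10A (1568 bp), PDE4B (1316 bp) and PDE4D (1228 bp). In the same order these 5 genes were 159, 485, 661, 582 and 1553 kb long. The median gene length of all 23 was 134 kb, and 1 of the 23 held a control-only peak. ADAM and ADAMTS metallopeptidases held them in 4 of 43: ADAM12 (2387 bp), ADAMTS12 (2265 bp), ADAMTS3 (1888 bp) and ADAMTS16 (1681 bp). Control-only peaks lay in 3 of the 43.

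Matrix genes were hosts in both directions. Of 43 collagens, 4 held a knockdown-only peak, COL4A5 (2031 bp), COL4A2 (1875 bp), COL5A2 (1726 bp) and COL26A1 (1320 bp), and 6 held a control-only peak. Of 44 extracellular matrix genes, 4 held each kind, with the integrin gene ITGA1 (1424 bp) and the lysyl oxidase LOXL2 (1242 bp) beside the collagens. The mesenchymal markers counted 2 of 11, TWIST2 and ZEB1, a repressor of epithelial genes (1100 bp), and 1 of the 11 held a control-only peak. The share of long genes is high among the collagens and in the matrix list, with median lengths of 150 kb and 95.9 kb. For the mesenchymal list the median length was 36.3 kb.

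In the TGF-beta, BMP and Wnt list 2 of 42, or 4.76%, held a knockdown-only peak: LGR5, an R-spondin receptor of stem cells (2378 bp), and TCF7L1, a Wnt-responsive repressor (2254 bp). A control-only peak was held by 3 of the 42. FGF12 (1237 bp) was the 1 of 46, or 2.17%, in the growth factor and receptor tyrosine kinase list, where 6 held a control-only peak. TENM2 (3590 bp) and CNTN5 (1645 bp), both neuronal adhesion genes, were the 2 of 46 in the neural adhesion list. This list had a median gene length of 832 kb, and 2 of its 46 genes held a control-only peak. Its knockdown-only share, 4.35%, was below the 9.48% of all coding genes over 300 kb. Of 26 SWI/SNF subunit genes, SMARCD1 (1582 bp) held one. The cell cycle list had E2F7 (1703 bp) as 1 of 25, the keratins had KRT5 (1686 bp) as 1 of 27, and the xenobiotic list had UGT2B7 (1664 bp), a glucuronosyltransferase, as 1 of 37. Zinc finger ZNF genes held them in 2 of 498 (ZNF792 and ZNF469) and solute carriers in 2 of 368 (SLC39A14 and SLC1A7). Control-only peaks lay in 3 of the cell cycle, 1 of the SWI/SNF, 4 of the ZNF and 9 of the solute carrier genes. No keratin or xenobiotic list gene held a control-only peak. None of 78 histone, 55 cytochrome P450, 29 HOX, 32 serpin, 28 inflammation, 14 hepatocyte, 11 endothelial or 8 epithelial genes on these chromosomes held one. Median gene lengths in these lists ran from 0.4965 kb for histones to 47.1 kb for the endothelial list. Of all coding genes under 20 kb 0.253% held one, and of 20 to 100 kb 1.04%, so these empty lists lie near the share for their gene lengths.

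SMARCB1 binding was measured in a separate library and was not used to choose the peaks. A SMARCB1 peak overlapped 9 of 601 knockdown-only peaks, or 1.5% (0.790 to 2.82%), against 11.2% of all knockdown peaks over 1 kb and 11.5% (11.1 to 11.9%) of shared ones. Among control-only peaks it was 10 of 927, or 1.08% (0.587 to 1.97%). By width class it was 1.13% (0.439 to 2.86%) for 1 to 1.5 kb, 2.16% (0.737 to 6.15%) for 1.5 to 2 kb and 1.87% (0.514 to 6.56%) above 2 kb. In shared knockdown peaks of those classes it was 7.79%, 10.4% and 13.6%.

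The 9 overlaps were not spread evenly over the SMARCB1 list: 6 of them involved peaks among the 24 with the highest authors' value of 4453. That value has no unit in the sources used here and only ranks the peaks. The highest, at 1217.4, shared 63 bases with a knockdown-only peak of 1319 bp that lay outside coding genes, 8.39 kb from NEMF. The second, at 1199.4, spanned 6020 bp over KRT5, a keratin of basal epithelia, and contained the whole knockdown-only peak of 1686 bp, with no control peak for 189 kb. The third, at 1166.7, shared 37 bases with a peak of 2561 bp in RPS29, a ribosomal protein gene. Rank 6 (912.1) shared 51 bases just before the transcript start of PARP2, a DNA damage responsive enzyme, and did not reach that start. The knockdown-only peak there was 1215 bp. Rank 9 (445.8) shared 381 bases at CCDC107 and the neighbouring RNA gene RMRP.

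Rank 24 (118.8) contained the whole 1180 bp peak in PERP, a desmosomal p53 target, at a position the authors class as 3′ UTR. The other 3 had low values: 12.1 in ANKRD11, 9.51 at 14.5 kb from RGS2, a regulator of G protein signalling, and 8.98 at 546 kb from SLC4A3. Of the 5 overlaps of highest value, 4 shared 37 to 381 bases at the edge of the knockdown-only peak. Whether the SMARCB1 and H3K27ac calls at the 6 highest-ranked of these loci reflect binding and acetylation was not tested.

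Chromosomes contributed unevenly. Knockdown-only peaks were fewer than control-only peaks on 17 of 22 chromosomes, equal in number on chromosomes 12 and 21, and more numerous on 14, 20 and X. Over all, the ratio of knockdown-only to control-only peaks was 0.648. On chromosome 14 there were 23 against 12, or 3.23% (2.16 to 4.80%) of its knockdown peaks against 1.72% (0.986 to 2.98%) of its control peaks. On X there were 23 against 13, or 3.52% (2.35 to 5.22%) against 1.90% (1.12 to 3.23%), and X held 3.83% (2.56 to 5.68%) of knockdown-only peaks, 2.92% (2.70 to 3.15%) of all knockdown peaks over 1 kb and 1.40% (0.821 to 2.38%) of control-only peaks. The share over all knockdown peaks lies inside the knockdown-only interval. On chromosome 20 there were 29 against 24, with intervals that overlap. The intervals of the shares within each chromosome's own lists also overlap on chromosomes 14 and X.

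**Figure D5:**
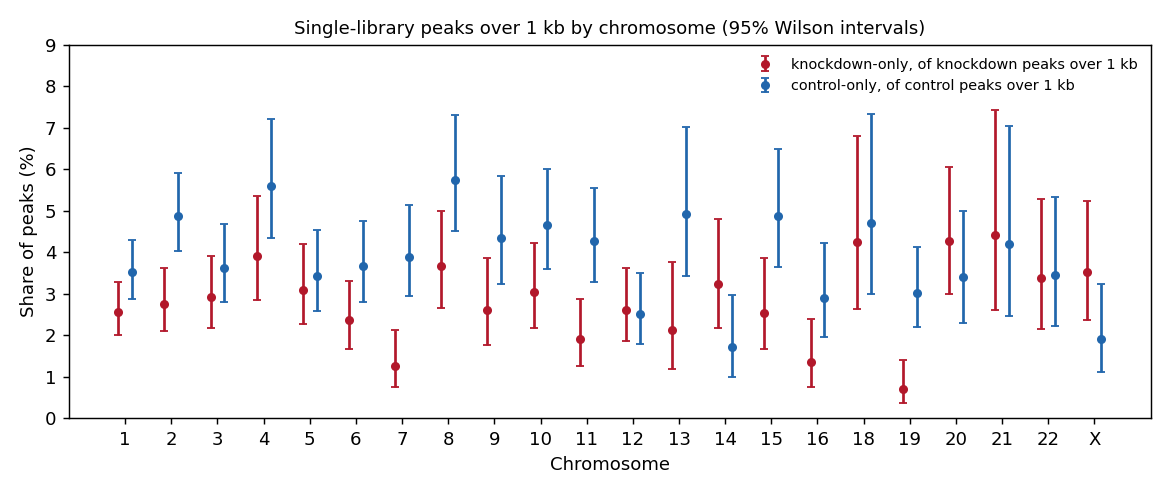
Share of knockdown-only peaks among knockdown peaks over 1 kb, and of control-only peaks among control peaks over 1 kb, in percent for each chromosome, with 95% Wilson intervals. Chromosome 19 has the lowest knockdown-only share, 0.712%, against a control-only share of 3.02%.

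The opposite end was chromosome 19, with 8 knockdown-only against 37 control-only peaks, or 0.712% (0.361 to 1.40%) against 3.02% (2.20 to 4.14%). Chromosome 7 had 14 against 47, or 1.27% (0.756 to 2.12%) against 3.89% (2.94 to 5.13%). The 2 intervals do not meet on these chromosomes, nor on 2 and 11, where the knockdown-only share was also lower. The ratio of all knockdown to all control peaks over 1 kb was 1.02 on chromosome 14, 0.958 on X, 0.918 on chromosome 19 and 0.914 on chromosome 7, and lowest on chromosome 13, at 0.907. Copy number, which could differ between the cell populations, was not measured in these files, and its part in these counts was not tested.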

How the data were processed

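ChIP-seq of H3K27ac (control and knockdown) and of SMARCB1 in SK-Hep1 gave 1 library per group, grouped by the submitters' titles. The labelled input library was not analysed here. The deposited files are peak lists. The submitters' processing notes name hg38 as build and Bowtie2 and HOMER as tools, with no versions. Per the file headers, each H3K27ac list was called separately in histone style, with 4-fold signal over the control input and over the local region required. In the deposited H3K27ac lists every peak has the same score, so width in bp was the size measure; the SMARCB1 score is the authors' own.

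Peaks on the autosomes except 17 and on X were compared by an overlap of 1 base, checked with bedtools 2.31.1 and on 2000 simulated peaks, all placed as simulated. Positions are 1-based. Genes are protein-coding records of the RefSeq table of GRCh38.p14 (18805 on these chromosomes), which has no strand or exons, so exon, intron and UTR classes are the authors' and only for SMARCB1 peaks. A gene end is within 1 kb of either end of the record and includes 3′ ends. Transcript starts come from the RefSeq promoter table, which covers 14988 of these genes and was not used for chromosome 8. Shares have 95% Wilson intervals; peaks are not replicates, so nothing was tested.

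The peaks, gene lists and families were chosen with earlier results of these data known. Named are genes at the 20 widest peaks, hosts of 3 or more, the 8 clusters with most peaks, the 15 genes with the widest peak at an end, all SMARCB1 overlaps, and up to 4 holders per list by width. Some members of these sets are not reported here. The most isolated peaks, the fifth phosphodiesterase, the start sites printed or named only for their marks, and EDA were chosen after their values were seen. The alternatives changed the width minimum, the control distance, merging, chromosomes, windows, gene types and cluster gaps. Tools were pandas 2.3.3, NumPy 2.4.6, matplotlib 3.10.9 and SciPy 1.17.1 under Python 3.11.15.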

Additional observations from a re-analysis of the deposited data

How the results depend on the processing

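Of 34 alternative values, 24 stayed within their 95% interval or within 1.5 times a count, and 10 moved; the cause was not tested. With peaks over 1500 bp there were 246 knockdown-only peaks and 7 clusters, and the ratio to control-only peaks was 0.769; over 2000 bp, 107 peaks were left. The share at a gene end was 7.49% with a window of 2.5 kb and 13.6% with all gene types, and the share inside a gene record was 65.9% with all gene types. A control peak lay within 50 kb of 70.0%. The share in clusters was 7.49% with gaps of at most 50 kb and 14.5% with 250 kb. Leaving a 1000 bp margin to control peaks gave 571 peaks, merging gave 599 and chromosome 17 gave 661. No paired analysis was possible because each group has 1 library, which also means that no replicate could be left out. The knockdown library had fewer tags than the control, and the lists give no tag count per peak, so the part of depth in a missing peak was not tested.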

Other observations

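The deposited knockdown list has an order, and the sources used here do not give its basis. Knockdown-only peaks over 1 kb stood late in it, with a median place at 67.1% of the list, against 34.6% for shared peaks. Place and width went together within both sets, with a Spearman rho of -0.77 over 601 and -0.76 over 21818 peaks, given as a description. The first knockdown-only peak in the list was the 10478 bp peak in the HAS2 desert, at 7.10%. The second, at 13.1%, lay in PIK3CB, a catalytic subunit gene of phosphoinositide 3-kinase, and was only 2705 bp wide.

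In windows of 10 Mb, chromosome 4 from 70 to 80 Mb held 8 knockdown-only and 1 control-only peaks, and chromosome 9 from 70 to 80 Mb also held 8 and 1. Chromosome 20 from 0 to 10 Mb held 8 and 4. All knockdown peaks over 1 kb in these windows numbered 79, 80 and 103. The 10 peaks of the fullest window, chromosome 8 from 120 to 130 Mb, stood beside 8 control-only peaks. Noncoding genes were also hosts: 114 knockdown-only peaks overlapped a record of 111 lncRNA genes, or 0.636% of 17459, against 1.49% of coding genes that held one, and 9 held the start of one, among them GAPLINC with a peak of 1533 bp. The lncRNA and coding shares were not matched for gene length, with which the coding share rose.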
